A study of Mus musculus with 12 samples.

Results

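The receptor chains through which CD4+ T cells bind IL-6, IL-12, IL-23, and IL-27 were followed at the mRNA level in Th0, Th17, and iTreg cells. The 6 genes Il6ra, Il6st, Il12rb1, Il12rb2, Il23r, and Il27ra were taken by their symbols from 11077 genes listed for Th17 versus Th0 and 11056 genes listed for iTreg versus Th0. All 6 had a row in the Th17 table and 5 in the iTreg table, where Il23r had none. RNA-seq was done on 12 libraries, 4 per group, each group from 4 independent cultures. The study's own RNA-seq tests were paired, while the main tests here are not, since the column headings carry no experiment number. Naïve CD4+CD62L+ cells came from the spleens of C57BL/6 mice aged 8 to 10 weeks. In all 3 groups they were activated for 3 days with plate-bound anti-CD3 at 1 μg/ml together with anti-CD28 at 1 μg/ml, and Th0 cells were given nothing else. Th17 cultures also had IL6 at 30 ng/ml, TGFβ1 at 5 ng/ml, and antibodies that neutralize IL4 and IFNγ, each at 10 μg/ml. iTreg cultures had IL2 at 10 ng/ml and TGFβ1 at 10 ng/ml, with no IL6. The iTreg dose of TGFβ1 is that of the sample labels, and the study's methods text gives a higher one. Each polarized group differed from Th0 cells in several added reagents at once, so the part of any one of them cannot be told apart.

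These chains work in pairs. IL-6 is held by the IL-6 receptor α chain (Il6ra) and signals through gp130 (Il6st), a chain that many cytokines of the family share and that IL-27 uses together with its own chain Il27ra. Il12rb1 is common to the IL-12 and IL-23 receptors, in which it is joined by Il12rb2 or by Il23r. IL-12 is known for STAT4 signaling and the Th1 fate and IL-6 and IL-23 for STAT3 signaling and the Th17 fate.

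Il12rb2 and Il23r are neighbors. In GRCm38, the build also called mm10, Il12rb2 lies on chromosome 6 at 67291318 to 67376188 and Il23r at 67422932 to 67491855, both on the minus strand, with 46743 bases and no protein-coding gene between them. The 250 bases before the start of each gene are printed from RefSeq (GRCm38.p6, minus strand, 5′ to 3′), because the 2 genes stand side by side and code for the alternative partners of the same chain. Capitals mark matches on either strand to AGGTCA, a half-site of nuclear receptors, in Il23r, and to TTCNNNGAA, a STAT motif, in Il12rb2.
Il23r, chr6:67491856-67492105: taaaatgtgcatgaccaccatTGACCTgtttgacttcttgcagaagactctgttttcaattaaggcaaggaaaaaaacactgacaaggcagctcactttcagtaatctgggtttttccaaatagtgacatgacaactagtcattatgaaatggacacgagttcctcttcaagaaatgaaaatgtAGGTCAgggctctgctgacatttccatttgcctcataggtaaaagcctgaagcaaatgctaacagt
Il12rb2, chr6:67376189-67376438: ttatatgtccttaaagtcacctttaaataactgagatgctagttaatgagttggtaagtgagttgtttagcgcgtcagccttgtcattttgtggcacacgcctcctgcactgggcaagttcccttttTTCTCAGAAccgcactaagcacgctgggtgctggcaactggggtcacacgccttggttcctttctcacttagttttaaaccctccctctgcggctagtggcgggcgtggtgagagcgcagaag
The Il23r window held 2 AGGTCA matches, which began 229 and 66 bases before the start, and no TTCNNNGAA. The Il12rb2 window held 1 TTCNNNGAA match 123 bases before the start and no AGGTCA. Among 32851 RefSeq promoter windows of this length, 14% had AGGTCA and 7.02% had TTCNNNGAA. TGANTCA, an AP-1 motif found in 6.75% of windows, was in neither, and the windows of Il6ra and Il6st, the other members with an entry, had none of the 3 motifs. GC content was 39.6% in the Il23r window and 50% in that of Il12rb2, compared to 65.2% for Il6ra and 66% for Il6st.

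The other chains lie elsewhere. Il6ra is on chromosome 3 at 89864059 to 89913196, Il6st on chromosome 13 at 112464070 to 112510086, Il12rb1 on chromosome 8 at 70808449 to 70821424, and Il27ra on chromosome 8 at 84030294 to 84042589. Reads had been counted without strand, so overlaps with other genes bear on the values. Of the exonic bases of Il12rb2, 40.0% are shared with Serbp1, a protein-coding gene on the opposite strand. The share was 2.80% for Il6ra and 0.0572% for Il27ra, and no exonic base of Il6st, Il12rb1, or Il23r was shared.

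Values are FPKM, fragments scaled to the length of the gene and the depth of the library, scaled so that levels of different genes can be compared within a library. Libraries are named by their group and by the beginning of their column heading (M22, M29, M42, or M43), whose meaning no source used here gives. Depth differed little, from 0.843 to 1.08 of the median library in the Th17 table and from 0.825 to 1.19 in the iTreg table. Each library had at least 7011329 fragments. All 7 defining CD4 T cell markers were listed, with summed levels of 939 to 2083 FPKM in Th0, 732 to 1443 in Th17, and 762 to 1317 in iTreg libraries. None of the NK, γδ T cell, or neutrophil markers was listed. Of the other markers, Cd8b1 was below 6.60 FPKM and Cd79a (B cells) below 3.84 FPKM in every library. Zbtb46, a dendritic cell marker, was at 0.306 to 1.44 FPKM in Th0, 0 to 0.125 in Th17, and 0.366 to 0.637 in iTreg libraries, and Itgam was at most 0.628 FPKM where it was listed. The part of these cells in the results was not tested.

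The polarization markers followed the labels, with a single library standing apart. Il17f was at 281 to 788 FPKM in Th17 libraries and at 0.0909 to 0.184 FPKM in Th0 libraries. Foxp3, the lineage factor of Treg cells, was at 62.0 to 91.7 FPKM in iTreg libraries and at 2.01 to 7.15 FPKM in Th0 libraries of the same table. In Th17 libraries Foxp3 was at 0.499 (M22), 0.502 (M29), 4.50 (M42), and 42.5 FPKM (M43). Values without the Th17 library M43 are therefore given for each chain in the Th17 comparison and for the counts of the gene lists.

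In Th0 cells Il27ra had the highest mean level (43.7 ± 16.2 FPKM, SD, n = 4), followed by Il6ra (33.2 ± 15.1), Il6st (24.7 ± 13.0), and Il12rb1 (18.9 ± 5.31). The ranges of these neighbors overlapped. Il12rb2 (2.21 ± 1.19 FPKM) was below all of them in every Th0 library, and Il23r (0.062 ± 0.097) was below Il12rb2 in every Th0 library. In Th17 cells the order was Il6st (59.6 ± 14.3 FPKM), Il27ra (55.2 ± 15.8), Il12rb1 (35.9 ± 13.3), Il6ra (23.9 ± 8.68), Il23r (2.39 ± 0.888), and Il12rb2 (1.14 ± 1.27), and only the step from Il6ra to Il23r was wider than the ranges of the neighbors. In iTreg cells Il6ra (44.7 ± 10.2 FPKM) and Il27ra (42.1 ± 9.69) were highest and overlapped. They were followed by Il12rb1 (21.5 ± 6.14) and Il6st (21.3 ± 6.22), whose ranges overlapped each other but not that of Il27ra, and by Il12rb2 (1.84 ± 0.457). Il6st therefore had the highest mean in Th17 cells, where it overlapped Il27ra. Both Il6ra and Il27ra were above Il6st in every iTreg library, and also in every Th0 library.

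**Figure D1:**
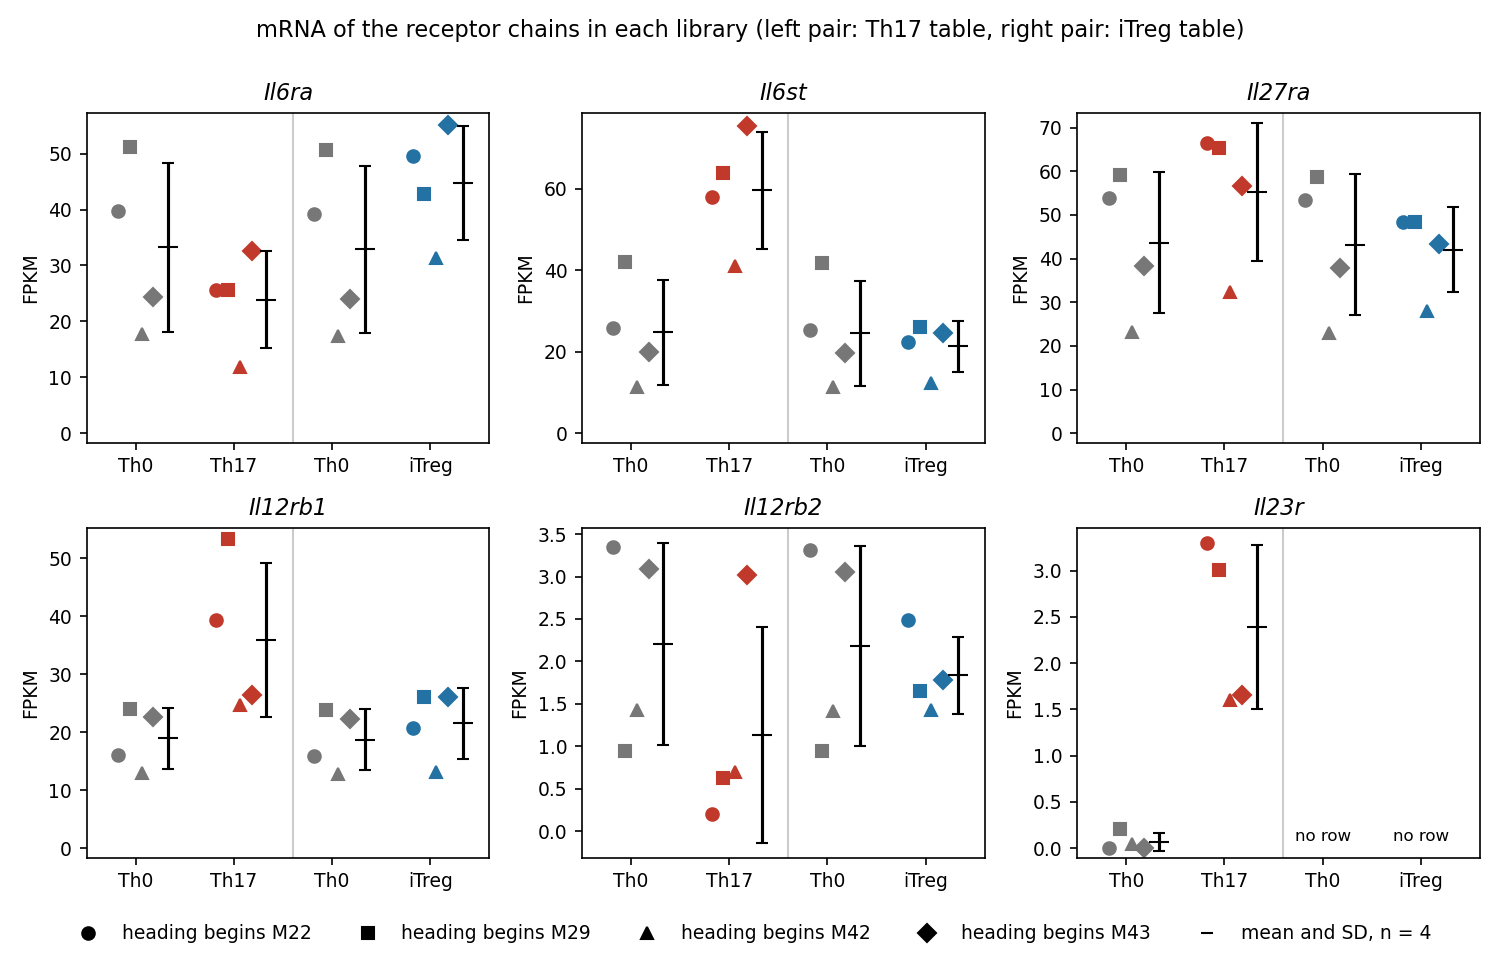
FPKM (vertical axis, linear) of the 6 receptor chains in each library, with Th0 and Th17 libraries of the Th17 table on the left of each panel and Th0 and iTreg libraries of the iTreg table on the right. Each point is a library, its shape gives the beginning of the heading, and the bars give mean and SD of 4 libraries. Th17 points of Il23r all lie above the Th0 points, Il6st reaches 41.1 to 75.5 FPKM in Th17 libraries, and triangles (M42) are lowest in every group for Il6ra, Il6st, Il12rb1, and Il27ra.

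The question of the Th17 comparison is how the chains differed between cells polarized with IL6 and TGFβ1 and cells that were activated alone. Il6st and Il23r were called higher in Th17 cells by limma on log2(FPKM + 1) with a Benjamini-Hochberg adjusted p under 0.05, and none of the 6 chains was called lower. Of all 10269 genes tested, 19.3% were called, 10.6% as higher and 8.69% as lower. With the beginning of the heading as a block, an alternative added after seeing the data, Il12rb1 and Il27ra were called higher as well, and 37.8% of all genes were called. Il12rb1 was higher without overlap between the groups but not called, and Il6ra, Il12rb2, and Il27ra overlapped. In bulk RNA, a change in the number of cells with a transcript and a change in the amount per cell cannot be told apart. The median log2 fold change of the 6 chains was 0.61, compared to -0.00071 over all genes tested, and it includes Il23r, which passed the filter on low values only through its Th17 libraries.

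Il6st, which codes for gp130, was at 25.7 (M22), 42.04 (M29), 11.4 (M42), and 19.8 FPKM (M43) in Th0 libraries. In Th17 libraries it was at 57.9 (M22), 63.8 (M29), 41.1 (M42), and 75.5 FPKM (M43). Each Th17 library was above the Th0 library with the same beginning of its heading, by 0.59 to 1.88 on the log2 scale, but the groups overlapped by the single Th0 library M29, which was just above the Th17 library M42. The ratio of the group means was 2.41, and the log2 fold change was 1.34 (SE 0.35, 95% confidence interval 0.54 to 2.15; limma adjusted p = 0.029). The exact permutation test of 4 against 4 libraries (two-sided) gave p = 0.057, where the smallest value possible is 0.029. The call did not hold without the Th17 library M43, where the log2 fold change was 1.22 and the limma adjusted p was 0.075. It was also lost without the Th0 libraries M22 (adjusted p = 0.056) or M43 (0.078) and without the Th17 libraries M22 (0.070) or M29 (0.072), while it held when any of the other 3 was left out. With the block on headings the adjusted p was 0.0040.

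Il23r, the chain that makes the IL-23 receptor, was at 0 FPKM in the Th0 libraries M22 and M43, at 0.205 in M29, and at 0.0434 in M42. In Th17 libraries it was at 3.30 (M22), 3.004 (M29), 1.60 (M42), and 1.65 FPKM (M43). Every Th17 library was above every Th0 library. In fragments, these were 5 in all Th0 libraries together and 211 in all Th17 libraries, and a count of 0 allows up to 3 fragments, or 0.161 FPKM in M22 and 0.129 FPKM in M43. The ratio of the group means was 38.5 and rests on those 5 fragments. On the log2(FPKM + 1) scale the fold change was 1.64 (SE 0.19, 95% confidence interval 1.22 to 2.06; limma adjusted p = 0.00041), and the exact permutation test gave the smallest p possible, 0.029. Since the gene passed the filter by being high in the Th17 libraries, it had to differ. The size depends on the constant added before the log, and with 0.1 FPKM in place of 1 the log2 fold change was 4.03. Without the Th17 library M43 it was 1.75 (limma adjusted p = 0.00083).

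Il12rb1, common to the IL-12 and IL-23 receptors, was at 16.1 (M22), 24.1 (M29), 12.9 (M42), and 22.6 FPKM (M43) in Th0 libraries. Its Th17 levels were 39.3 (M22), 53.3 (M29), 24.7 (M42), and 26.5 FPKM (M43). The lowest Th17 library was above the highest Th0 library, and 23.8% of all genes tested were separated in this way, 13.2% upward. The log2 fold change was 0.86 (SE 0.28, 95% confidence interval 0.23 to 1.50), with a limma adjusted p of 0.062 and an exact permutation p of 0.029. The gene was not called in the full set of libraries. It was called without the Th17 library M42 (log2 fold change 1.02, limma adjusted p = 0.037), and not without the Th17 library M43 (0.98, 0.065). With the block on headings the SE fell to 0.17 and the gene was called (limma adjusted p = 0.0087).

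Il12rb2, the chain of the IL-12 receptor that is associated with Th1 cells, was at 3.35 (M22), 0.951 (M29), 1.43 (M42), and 3.09 FPKM (M43) in Th0 libraries. In Th17 libraries it was at 0.208 (M22), 0.634 (M29), 0.697 (M42), and 3.02 FPKM (M43). Each Th17 value was below that of the Th0 library with the same beginning, but the groups overlapped by the Th17 library M43, whose Foxp3 level stood apart. The log2 fold change of -0.66 (SE 0.39, 95% confidence interval -1.56 to 0.23) did not pass the test (limma adjusted p = 0.29, exact permutation p = 0.17). Without that library it was -1.02 with a limma adjusted p of 0.061, and with 0.1 FPKM added in place of 1 it was -1.25. The values rest on 220 fragments in Th0 and 121 in Th17 libraries. Serbp1, which shares exonic bases with Il12rb2, was at 92.2 to 109.8 FPKM in Th0 and 82.1 to 103.7 FPKM in Th17 libraries (log2 fold change -0.13, limma adjusted p = 0.47), and its part in the Il12rb2 values was not tested.

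Il6ra, the chain that binds IL-6 itself, was at 39.7 (M22), 51.1 (M29), 17.7 (M42), and 24.3 FPKM (M43) in Th0 and at 25.6 (M22), 25.6 (M29), 11.8 (M42), and 32.6 FPKM (M43) in Th17 libraries. The Th17 level was below that of the matching heading in all but M43, and the groups overlapped. The log2 fold change was -0.43 (SE 0.38, 95% confidence interval -1.29 to 0.43; limma adjusted p = 0.48), and without the Th17 library M43 it was -0.60 (adjusted p = 0.37). Il27ra was at 53.9 (M22), 59.1 (M29), 23.3 (M42), and 38.3 FPKM (M43) in Th0 and at 66.6 (M22), 65.2 (M29), 32.4 (M42), and 56.6 FPKM (M43) in Th17 libraries. Its log2 fold change of 0.36 (95% confidence interval -0.37 to 1.10) did not pass the test (limma adjusted p = 0.49), although each Th17 library was above the Th0 library of the same beginning, and without the Th17 library M43 it was 0.33 (adjusted p = 0.59). With the block on headings Il27ra was called (SE 0.10, limma adjusted p = 0.025) and Il6ra was not (0.15). Without the block, the intervals of both genes leave room for changes in either direction.

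**Figure D2:**
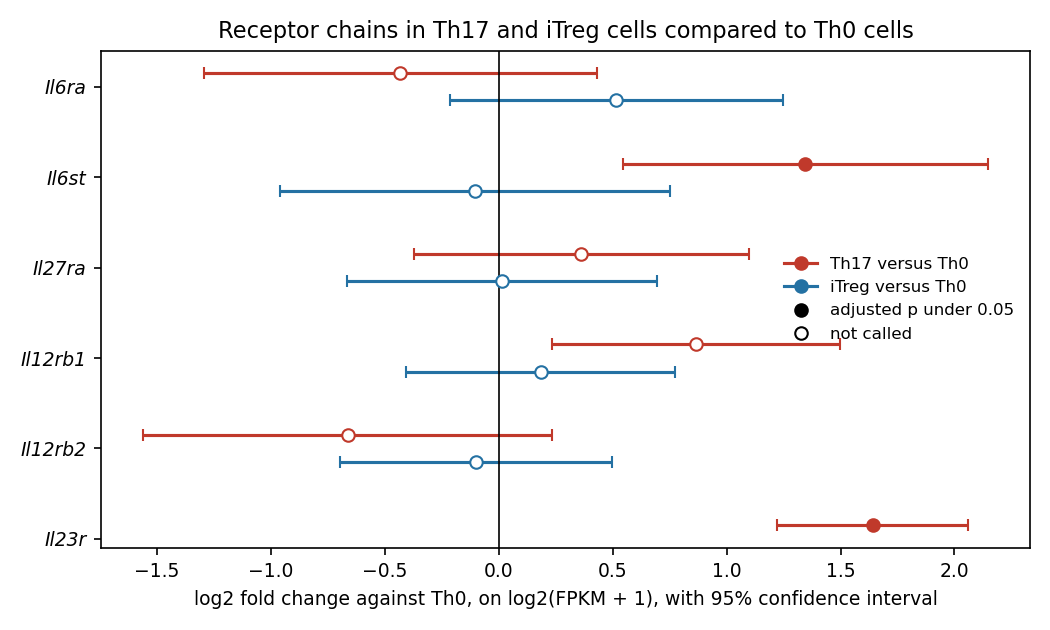
Log2 fold change against Th0 cells (horizontal axis, on the log2(FPKM + 1) scale) of each chain in Th17 (red) and iTreg cells (blue), with 95% confidence intervals from limma over 4 against 4 libraries. Filled points mark an adjusted p under 0.05, which only Il6st (1.34) and Il23r (1.64) had, both in the Th17 comparison. Il23r has no iTreg value.

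The iTreg comparison concerns cells that had TGFβ1 and IL2 but no IL6. None of the 5 chains listed was called in either direction, where limma called 16.6% of 10208 genes tested, 8.36% as higher and 8.21% as lower. None was called with the block on headings either, where 40.9% of genes were, and the smallest adjusted p was 0.096 for Il6ra. In the fit without the block, none had an unadjusted limma p under 0.05, and the smallest was 0.14 for Il6ra. The median log2 fold change of the 5 chains was 0.015, compared to 0.011 over all genes tested. All 5 overlapped between the groups, where 22.8% of genes tested did not. Il23r had no row in this table, which the authors had limited to genes above a low CPM in at least 4 libraries, and its level in iTreg cells is not given.

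Il6ra had the largest difference among these chains. It was at 49.6 (M22), 42.8 (M29), 31.4 (M42), and 55.1 FPKM (M43) in iTreg libraries, compared to 17.4 to 50.7 FPKM in the Th0 libraries of the same table. Of the iTreg libraries, 3 of 4 were above the Th0 library with the same beginning, and M29 was below. The log2 fold change was 0.52 (SE 0.32, 95% confidence interval -0.21 to 1.25; limma adjusted p = 0.33, exact permutation p = 0.23). Il6st was at 22.3 (M22), 26.1 (M29), 12.2 (M42), and 24.5 FPKM (M43) in iTreg libraries and between 11.2 and 41.7 FPKM in Th0 libraries. Its log2 fold change was -0.10 (95% confidence interval -0.96 to 0.75; limma adjusted p = 0.89), an interval that overlaps the one found in Th17 cells. That overlap does not decide whether the change of Il6st differed between Th17 and iTreg cells. Levels of Il6st were 41.1 to 75.5 FPKM in the Th17 libraries of the other table. The difference between the changes was not tested, since each table was fitted by itself, and both share the Th0 libraries.

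Il12rb1 was at 20.8 (M22), 26.1 (M29), 13.1 (M42), and 26.0 FPKM (M43) in iTreg libraries, each above the matching Th0 library by 0.04 to 0.36 on the log2 scale. This gave a log2 fold change of 0.18 (95% confidence interval -0.41 to 0.78; limma adjusted p = 0.70). Il12rb2 was at 2.49 (M22), 1.65 (M29), 1.43 (M42), and 1.78 FPKM (M43), within the Th0 range of 0.942 to 3.31 FPKM. The log2 fold change of Il12rb2 was -0.10 (95% confidence interval -0.69 to 0.50; limma adjusted p = 0.85). Il27ra was at 48.4 (M22), 48.4 (M29), 28.0 (M42), and 43.4 FPKM (M43), all within the Th0 range of 23.0 to 58.6 FPKM, with a log2 fold change of 0.01 (95% confidence interval -0.67 to 0.70; limma adjusted p = 0.98). The sign of the differences of Il12rb2, Il6st, and Il27ra changed when single libraries were left out.

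Much of the spread within groups was common to several chains. Il6ra, Il6st, Il12rb1, and Il27ra were all lowest in the library M42 of each of the 3 groups. Of all genes tested, 19% had M42 lowest in both groups of the Th17 table and 16.5% in both groups of the iTreg table. The share with M42 lowest in all 3 groups was not computed. Il12rb2 differed from them, with its lowest value in M29 in Th0, in M22 in Th17, and in M42 in iTreg libraries. The unpaired test takes this shared part as spread between libraries, and the block on headings removes it.

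The ratio of chains of the same receptor within a library does not depend on the library's scale. The ratio of Il6ra to Il6st had a log2 value of 0.63 (M22), 0.28 (M29), 0.63 (M42), and 0.30 (M43) in Th0 libraries. In Th17 libraries it was -1.18 (M22), -1.32 (M29), -1.80 (M42), and -1.21 (M43), and in iTreg libraries 1.15 (M22), 0.71 (M29), 1.36 (M42), and 1.17 (M43). All Th17 libraries were thus below and all iTreg libraries above every Th0 library. The means were 0.46 ± 0.20 in Th0, -1.38 ± 0.29 in Th17, and 1.10 ± 0.27 in iTreg libraries (SD, n = 4). On the linear scale there were 1.22 to 1.55 Il6ra per Il6st in Th0, 0.288 to 0.441 in Th17, and 1.64 to 2.56 in iTreg libraries. These ratios are given as values and were not tested.

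The ratio of Il27ra to Il6st was also lower in Th17 cells, with log2 values of 0.20 (M22), 0.03 (M29), -0.34 (M42), and -0.42 (M43) compared to 0.49 to 1.07 in Th0 libraries. In iTreg libraries it was 0.83 to 1.19 and overlapped Th0. The ratio of Il12rb2 to Il12rb1 overlapped between all groups. It was -4.66 to -2.27 in Th0, -7.56 to -3.13 in Th17, and -3.99 to -3.06 in iTreg libraries on the log2 scale, and the highest Th17 value was again that of M43. Of the exonic bases of Il12rb2, 40.0% are shared with Serbp1, while Il12rb1 and Il23r share none. The part of this overlap in the ratios and order of these chains was not tested. The partners of Il12rb1 stood in a different order in Th0 libraries and in the Th17 libraries M22, M29, and M42. In those Th17 libraries Il12rb2 rests on 5, 18, and 18 fragments. Il23r was below Il12rb2 in all 4 Th0 libraries, and in Th17 libraries it was above Il12rb2 by 3.99 (M22), 2.24 (M29), and 1.20 (M42) on the log2 scale but below it by a log2 ratio of -0.87 in M43. Relative to Il12rb1, Il23r was at 0.0839, 0.0564, 0.0651, and 0.0624 on the linear scale in these Th17 libraries.

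**Figure D3:**
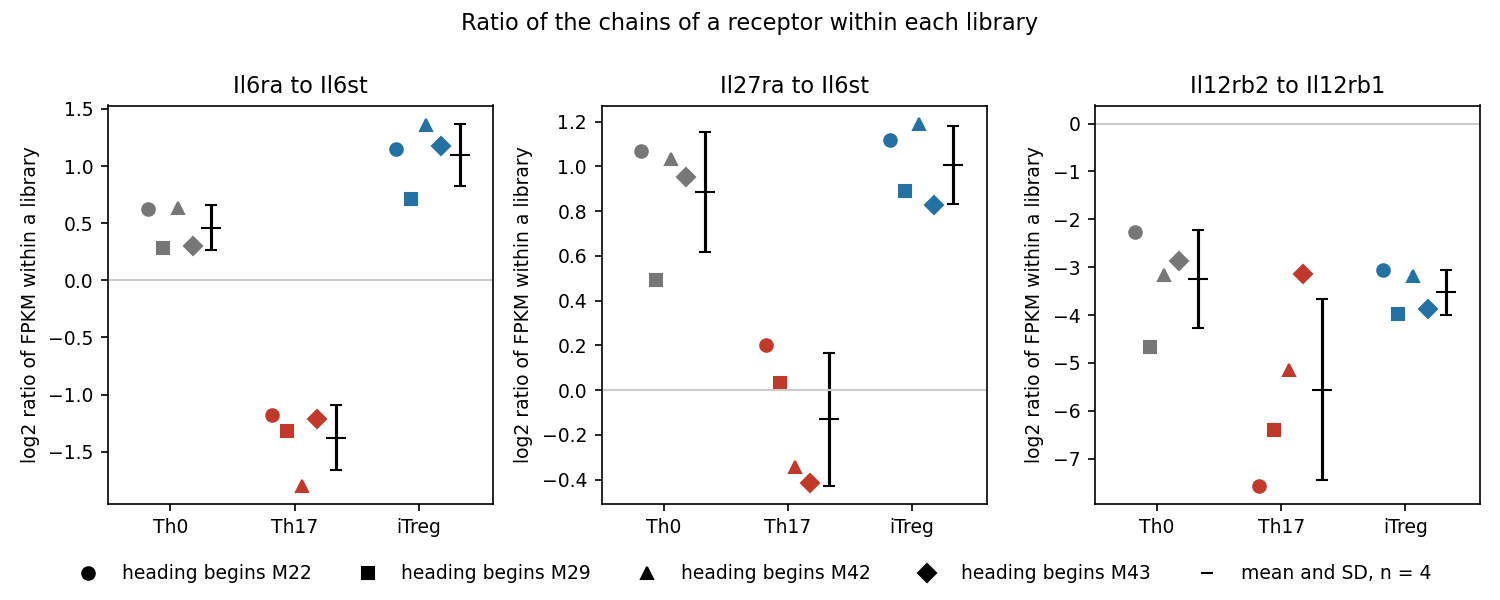
Log2 ratio of FPKM (vertical axis) between chains of a receptor within each library, for Il6ra to Il6st, Il27ra to Il6st, and Il12rb2 to Il12rb1. Each point is a library, shapes give the beginning of the heading, and bars give mean and SD of 4 libraries; Th17 libraries lie at -1.80 to -1.18 and iTreg libraries at 0.71 to 1.36 in the first panel, with Th0 between them.

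The genes whose levels over the 8 libraries of a table were most like those of a chain are given as a description, by Pearson's r of log2(FPKM + 1), with no test. Both conditions and the shared library differences enter these values. In the Th17 table Il23r was most like Kifc3 (r = 0.997), Prr5l (0.993), and Nr1d1 (0.993), and Il6st was most like Cpeb2 (0.994), Enpp1 (0.987), and D17H6S53E (0.982). Il12rb2 was most like Kcnk5 (0.979), Il12rb1 like Mcfd2 (0.959), and Il27ra like Ufl1 (0.990). In the iTreg table the nearest genes were Vac14 for Il6ra (0.966), Fam134c for Il6st (0.989), Galnt4 for Il12rb1 (0.977), Prpsap2 for Il12rb2 (0.971), and Atp9b for Il27ra (0.991).

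Few ligands of these receptors were listed. Of 12 genes for ligand subunits, including Il6, Il12a, Il12b, Il23a, and Il27, 3 had a row in the Th17 table (Lif, Osm, and Clcf1, whose products signal through gp130) and none of them was called. In the iTreg table, where Ebi3 was also listed, Osm rose from 5.99 to 8.86 FPKM in Th0 libraries to 12.3 to 18.9 FPKM in iTreg libraries (log2 fold change 1.04, SE 0.16; limma adjusted p = 0.0031). Osm in Th17 libraries was at 4.14 to 7.71 FPKM in M22, M29, and M42 and at 33.0 FPKM in M43. Of 8 related receptor chains of the gp130 family, only Il11ra1 was listed, and it was not called in either comparison (log2 fold change 0.07 and -0.09; limma adjusted p = 0.87 and 0.83). The proteases Adam10 and Adam17, which cut the IL-6 receptor from the cell surface, were not called in either comparison, but both were called lower in Th17 cells with the block on headings (log2 fold change -0.58 and -0.32; limma adjusted p = 0.0064 and 0.022).

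Downstream of the receptors, 5 of 11 JAK and STAT genes were called higher in Th17 cells and 1 lower, where 10.6% and 8.69% of all genes were. Without the Th17 library M43 these were 4 and 1, since Stat2 was not called (adjusted p = 0.071). With the block on headings they were 6 and 3, where 1970 and 1912 of all 10269 genes were. Stat3, the main factor of IL-6 and IL-23 signaling, rose from 50.5 to 56.2 FPKM in Th0 libraries to 156 to 174 FPKM in Th17 libraries (log2 fold change 1.62, SE 0.09; limma adjusted p = 1.12e-05). Jak3 (0.92) rose as well, as did Stat5b and Stat2. Stat4, which transmits the IL-12 signal, fell from 15.0 to 23.9 FPKM to 2.51 to 3.69 FPKM (log2 fold change -2.29, SE 0.16; limma adjusted p = 4.29e-05). The kinases Jak1, Jak2, and Tyk2, which are bound to the chains described here, were not called, with log2 fold changes of -0.07, -0.49, and -0.20, and Jak2 was called lower with the block on headings (limma adjusted p = 0.038).

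In iTreg cells 4 of the 11 genes were called higher and 1 lower, where 8.36% and 8.21% of all genes were. With the block on headings these were 5 and 3, where 2131 and 2039 of all 10208 genes were. Stat4 was at 3.01 to 4.86 FPKM in iTreg libraries, all below the Th0 libraries (log2 fold change -2.01, SE 0.17; limma adjusted p = 0.00014). Stat5a (1.10) and Stat5b (1.02) rose, and Stat3 was at 79.3 to 84.5 FPKM (log2 fold change 0.65, SE 0.08; limma adjusted p = 0.0011). As in Th17 cells, Jak1, Jak2, and Tyk2 were not called (log2 fold change -0.22, -0.63, and -0.17). Of these kinases only Jak2 was called lower with the block on headings (limma adjusted p = 0.0092). The median log2 fold change of the 11 genes was 0.61 in Th17 and -0.0028 in iTreg cells, and both comparisons share their Th0 libraries.

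Among 17 feedback inhibitors and phosphatases, 4 were called higher and 2 lower in Th17 cells, where 10.6% and 8.69% of all genes were. Without the Th17 library M43 these were 3 and 2, since Pias2 was not called (adjusted p = 0.071). With the block on headings they were 6 and 4, where 1970 and 1912 of all 10269 genes were. Socs3, which binds gp130 and limits IL-6 signaling, was at 2.54 to 3.32 FPKM in Th0 libraries. In Th17 libraries it was at 52.5 (M22), 55.7 (M29), 52.6 (M42), and 131 FPKM (M43), a log2 fold change of 4.12 (SE 0.28; limma adjusted p = 3.39e-05) that was 3.80 without M43. Socs1 (1.72) and Pias2 (0.46) rose and the phosphatase genes Ptpn11 (-1.01) and Ptpn6 (-0.79) fell. In iTreg cells 5 of the 17 were called higher and 1 lower, where 8.36% and 8.21% of all genes were. With the block on headings they were 8 and 5, where 2131 and 2039 of all 10208 genes were. Socs2 (3.31), Cish (1.90), and Socs1 (1.29), which are known to limit signaling by IL2 and other cytokines, had the largest increases there. Socs3 was at 5.75 to 7.96 FPKM in iTreg libraries (log2 fold change 1.07, SE 0.12; limma adjusted p = 0.00063), and Ptpn11 fell by 0.92 on the log2 scale. The median of the 17 was -0.015 in Th17 and 0.13 in iTreg cells.

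**Figure D4:**
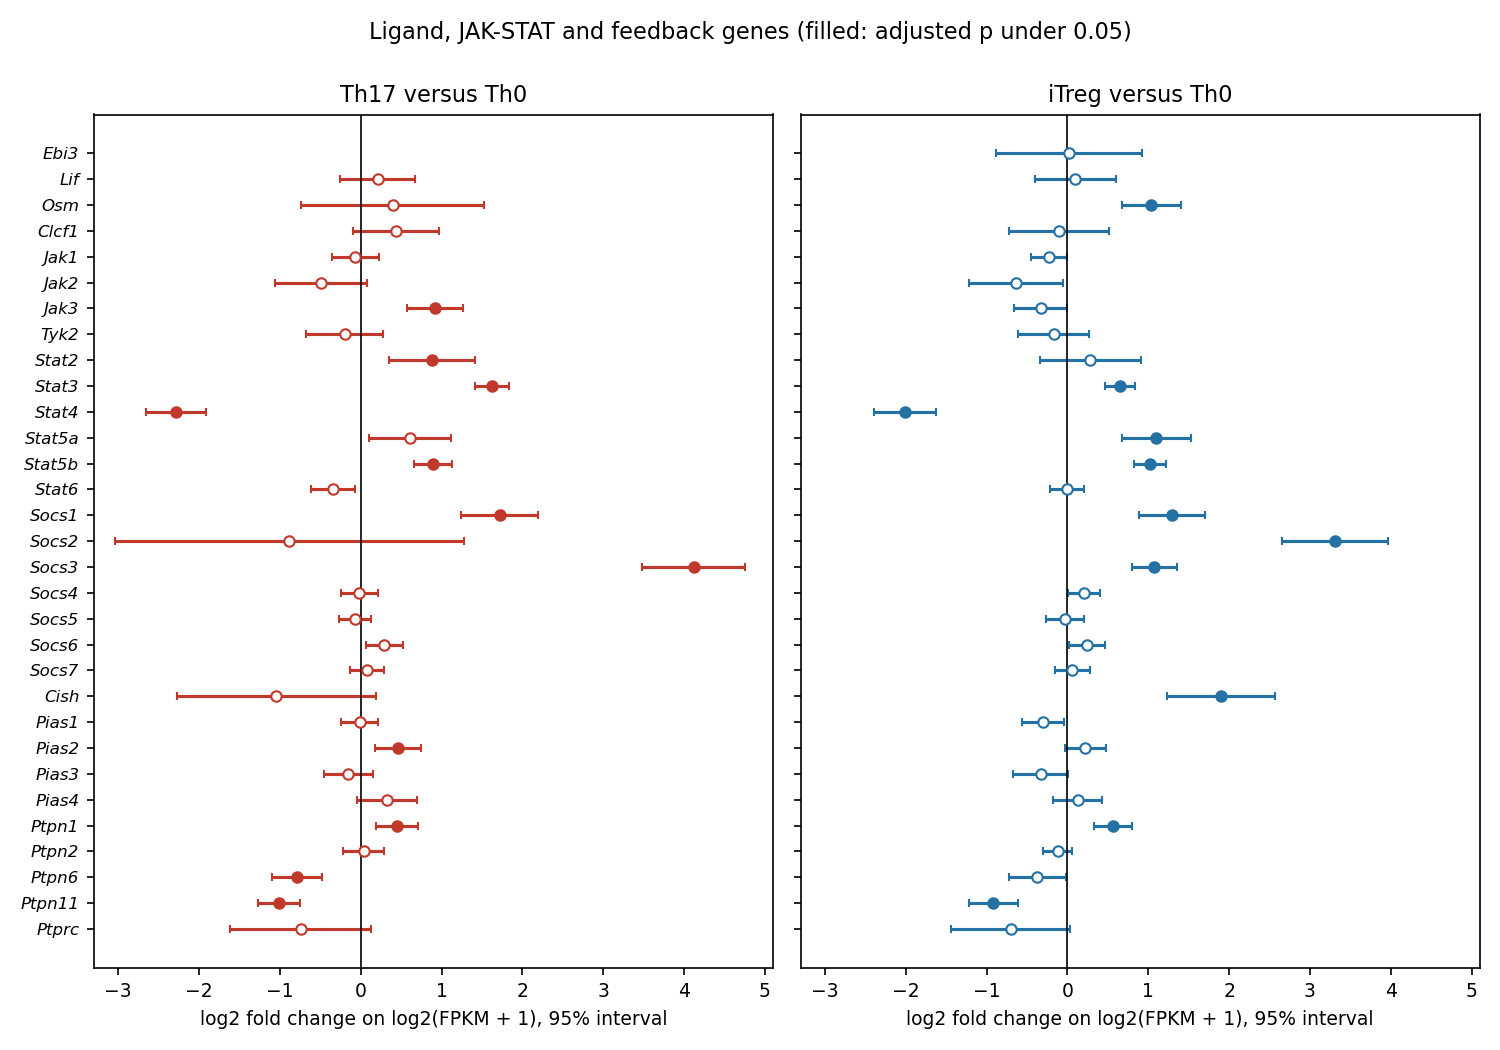
Log2 fold change against Th0 cells (horizontal axis, on the log2(FPKM + 1) scale, with 95% confidence intervals from limma) of listed ligand, JAK, STAT, and feedback genes in Th17 (left) and iTreg cells (right). Filled points mark an adjusted p under 0.05; Socs3 is farthest to the right in Th17 cells (4.12), Socs2 in iTreg cells (3.31), and Stat4 farthest to the left in both (-2.29 and -2.01).

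Among 18 lineage factors and cytokines of T helper subsets, 14 were tested for Th17 and 10 for iTreg cells. In Th17 cells 10 were called higher and 1 lower, where 10.6% and 8.69% of all genes were. Without the library M43 the counts were the same. With the block on headings they were 11 and 1, where 1970 and 1912 of all 10269 genes were. The increases were led by Il17f (log2 fold change 8.64), Il21 (6.07), and Maf (5.46), and Gata3, the Th2 factor, was called lower (-1.96). Il17a rose by 4.50 on the log2 scale. In iTreg cells 6 were called higher, led by Il17f (5.53), Maf (4.18), and Foxp3 (3.81), and none lower, where 8.36% and 8.21% of all genes were. With the block on headings these were 6 and 1, where 2131 and 2039 of all 10208 genes were. The gene called lower there was Gata3 (log2 fold change -0.41, limma adjusted p = 0.034). Il17a, Il17f, and Il21 in Th17 cells and Il17f in iTreg cells passed the filter on low values only through the polarized libraries, so they had to differ. Of the other genes 7 and 5 were called higher, and their median log2 fold change was 2.26 in Th17 and 1.43 in iTreg cells. Of all genes tested, 112 of 10269 and 96 of 10208 passed in this way. Of the rest, 983 and 757 were called higher, with median log2 fold changes of -0.0050 and 0.0081.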

How the data were processed

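Total RNA of 12 libraries had been sequenced with paired 100-nt reads, which the authors mapped with TopHat2 2.0.14 to mm10 and counted on exons with HTSeq, without strand and in union mode, on an annotation that no source used here names. The authors deposited 2 tables with FPKM values (Th17 versus Th0 and iTreg versus Th0), limited to genes above 1 CPM in at least 4 samples. The FPKM of the shared Th0 libraries differ between the tables by a constant factor of 0.988 to 0.991, and tests were run within a table only. The tables also hold the authors' own edgeR columns (log2 fold change, log2 CPM, likelihood ratio, p-value, and FDR), which were not used. Columns were assigned to groups by the ending of their headings, which carry no experiment number. The labels number the experiments, but columns were not matched to them. The main comparison therefore has no block, although the study's own tests were paired. Libraries that share the beginning of their heading deviated from their group means together, with correlations across genes of 0.450 to 0.784 (Th17 table) and 0.662 to 0.769 (iTreg table) for the 4 pairs of each, compared to -0.590 to 0.434 and -0.576 to 0.248 for libraries of different beginnings. A limma fit with the beginning as a block was therefore added after seeing the data. That the beginnings mark experiments is a hint from the data, not from the labels.

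For each table, limma 3.58.1 (R 4.3.3; default eBayes, neither trend nor robust) compared log2(FPKM + 1) for genes whose FPKM exceeded 1 in 4 or more of its 8 libraries. Adjustment was by Benjamini-Hochberg over all such genes, with calls at an FDR of 0.05. Fold changes on this scale understate changes of low genes. Exact permutation tests enumerated all 70 arrangements (two-sided), in Python 3.11.15 with scipy 1.17.1. The fits were tested on simulated data. Fragments per gene were read from FPKM as whole multiples of a smallest step, found for 99.9% of genes with a tolerance of 0.02, and are the smallest counts that give these values. They served for depth only and no count test was run. Intervals and floors from fragments cover counting error only. The limma p-values set a group difference against the spread between libraries of a group, with variances moderated by eBayes over all genes tested. With the block, the part shared by a heading beginning is taken out of that spread. All p-values refer to these cultures only.

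The 6 chains, the gene lists, and the tests were chosen with earlier results of these data known. Named genes are the chains, up to 3 genes with the largest increase and 3 with the largest decrease among called genes of each list, Il17a, Il17f, and Foxp3, and the 3 genes most like each chain. A few genes that this rule takes are counted in their lists but not reported here. Other genes are named as members of a list, and Serbp1 for its overlap. Loci come from GENCODE vM21 and promoters from RefSeq. Promoter entries matched 4 of the 6 chains.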

Additional observations from a re-analysis of the deposited data

Results flagged for a closer look

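The ratio of Il6ra to Il6st moved in opposite directions in the 2 comparisons. Its mean log2 value differed from Th0 by -1.84 in Th17 and by 0.64 in iTreg libraries, and all 4 libraries of each group lay on their side of every Th0 library. The difference between the comparisons was not tested. Both used the same Th0 libraries, and the ratio is free of the scale of a table. No library stood apart from its group by Dixon's criterion in 28 sets of levels and ratios, in which chance flags about 1 in 20. The nearest was Il12rb2 in Th17 cells, where M43 at 3.02 FPKM reached 0.826.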

How the results depend on the processing

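The column headings carry no experiment number, and a replicate block could be fitted only on their beginnings. With this block limma called 3882 genes in the Th17 and 4170 in the iTreg comparison, in place of 1983 and 1691. Il12rb1 (log2 fold change 0.86) and Il27ra (0.36) became called in Th17 cells, and the block changed no other call of a chain. The other alternatives were a constant of 0.1 FPKM, no filter on low values, limma-trend, an FDR of 0.01, libraries centred on their median, and each library left out in turn, and for chain ratios 1 FPKM added to both chains; leaving out libraries for the ratios and the block were added after seeing the data. At an FDR of 0.01 limma called 995 genes in the Th17 and 778 in the iTreg comparison, and Il6st (log2 fold change 1.34) was no longer called. Centring turned Il27ra in iTreg cells from 0.01 to -0.0064. No other call of a chain changed under the alternatives that keep all libraries without a block, and the log2 fold change of Il23r was 1.60 to 4.03. With single libraries left out, Il6st lost its call in 5 of 8 fits and Il12rb1 gained one in 1. The log2 fold changes against Th0 in Th17 cells were 1.04 to 1.64 for Il6st, 0.66 to 1.02 for Il12rb1, 1.51 to 1.76 for Il23r, -1.02 to -0.44 for Il12rb2, -0.69 to -0.14 for Il6ra, and 0.10 to 0.59 for Il27ra. In iTreg cells they were -0.31 to 0.0752 for Il12rb2, -0.41 to 0.19 for Il6st, -0.25 to 0.19 for Il27ra, 0.02 to 0.39 for Il12rb1, and 0.26 to 0.76 for Il6ra. The counts of called genes were 1364 to 2237 and 1140 to 1521. The log2 ratio of Il6ra to Il6st differed from Th0 by -1.90 to -1.70 in Th17 and by 0.55 to 0.77 in iTreg libraries. For Il12rb2 to Il12rb1 in Th17 libraries the difference of -2.32 was -1.53 with 1 FPKM added and -3.13 to -1.65 with single libraries left out. In iTreg libraries the difference was -0.0106 to 0.18 for Il27ra to Il6st and -0.76 to 0.0396 for Il12rb2 to Il12rb1. The cause of these changes was not tested. Depth limits Il23r and Il12rb2, which rest on at most 72 and 85 fragments in a library.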
